A study of Homo sapiens with 6 samples.

Results

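The 10 genes described here are the MHC class II chain genes HLA-DRA, HLA-DRB1, HLA-DRB5, HLA-DPA1, HLA-DPB1 and HLA-DQB1, the peptide-exchange genes HLA-DMA and HLA-DMB, the invariant chain gene CD74, and CIITA, the regulator of the family. They were chosen by symbol, as a gene family, from results of this same comparison in which its leading genes showed large falls, so their changes are given as a description and not as a test of the family. All 10 had a row among the 20115 genes measured, and 1 of them, CIITA, also had a row among the 2014 downstream-of-gene (DoG) regions, which are stretches of transcription that run on past a gene's end. The study sequenced rRNA-depleted total RNA of MDA-MB-231, an established line of human triple-negative breast cancer. In 3 libraries an inducible short hairpin against UBE3D, placed in the genome by lentivirus, had been switched on with doxycycline, and 3 libraries were controls. What hairpin the controls carried, and whether they were given doxycycline, is not stated in the sources used here, and each sample is labelled as pooled. The study asked which genes and readthrough transcripts change when UBE3D is depleted. The files hold 1 comparison, knockdown over control, with a mean normalized count over the libraries, a log2 fold change and its standard error (SE) per gene, so no value per library, no depth and no separate level of each group can be given. Whether the libraries came from separate cultures is not stated, so the p-values reflect variation among these libraries, possibly technical variation only.

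MHC class II molecules present peptides from endosomes to CD4+ T cells. An alpha and a beta chain, encoded by paired DR, DP or DQ genes, assemble with the invariant chain CD74, which blocks the groove and guides the complex to endosomes, where HLA-DM exchanges the last fragment of CD74 for a peptide. Dendritic cells, B cells and macrophages make these proteins at all times, while most other cells make them after interferon gamma. In both settings CIITA, a coactivator that does not itself bind DNA, is recruited to the X and Y boxes of the promoters by the factors RFX, CREB and NF-Y. Carcinoma cells can express the set without being immune cells.

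The knockdown target UBE3D, which encodes a ubiquitin ligase, had a log2 fold change of -0.80 (adjusted p = 0.00632, SE 0.37) and a mean count of 36.7, per the authors' deposited table, a call that a Wald test of the change over its SE did not give. CPSF3, the gene of the endonuclease CPSF73 named in the series title, stood at -0.12 (adjusted p = 0.464, SE 0.13) in the authors' deposited table. Markers listed as present in the line were abundant, and of those listed as low or absent EPCAM was not low. Per kilobase of transcript, the authors' deposited means came to 4194 normalized counts for VIM, 6538 for CD44 and 3548 for AXL. Among the genes listed as low or absent they came to 5.06 for the oestrogen receptor gene ESR1, 17.8 for PGR, 22.7 for CDH1 and 235 for EPCAM. All gene means lay between 7.74 and 135141 normalized counts in the authors' deposited table. Its fold changes were taken as shrunken toward 0, which no source states, so the folds below may understate the change, most where counts were low.

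The antigen-presenting chains, their chaperone and their regulator were lower in the knockdown, and the HLA-DM genes did not change detectably. By an adjusted p under 0.05 from DESeq2, 8 of the 10 genes were lower in the knockdown, per the authors' deposited table, and 0 were higher, also at an unadjusted p under 0.05. Over all genes, 7.93% were lower and 4.62% higher by the same rule, and nothing is read from the members' larger share, since they were selected on this comparison. Of the 8, 6 fell by at least 1 on the log2 scale, and the median log2 fold change of the 10 was -1.33, against -0.03 over all genes. In bulk RNA, fewer cells expressing the genes and less RNA per cell cannot be told apart. The plot of the members shows the division between the chains and HLA-DM.

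**Figure D1:**
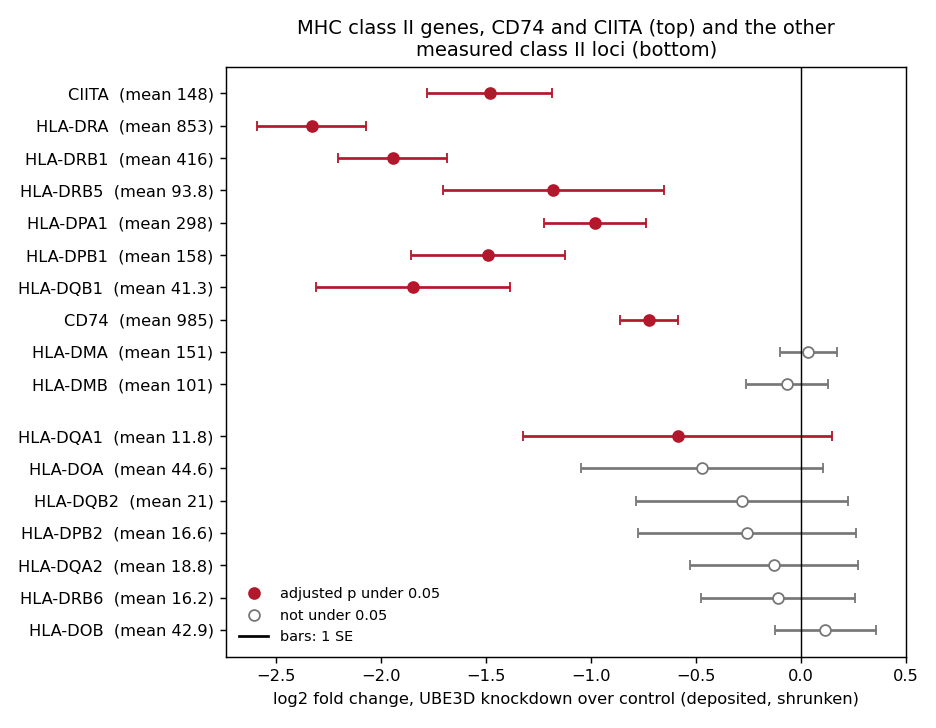
Log2 fold change of each gene, UBE3D knockdown over control, with bars of 1 SE and the mean normalized count beside each name; filled points have an adjusted p under 0.05. CIITA, the 6 chain genes and CD74 lie between -2.33 and -0.72, HLA-DMA and HLA-DMB lie near 0, and the 7 other measured class II loci, all with means under 50, lie between -0.59 and 0.12.

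CIITA, on the plus strand of chromosome 16 (10866222 to 10943021, GRCh38), fell 2.79-fold. Its log2 fold change was -1.48 (adjusted p = 5.18e-07, SE 0.30) and its mean count 148, per the authors' deposited table. It was the least abundant member but 1 for its length: the authors' deposited mean came to 39.5 normalized counts per kilobase of its median coding transcript. That figure ranged from 9.22 to 63.2 over its annotated coding transcripts, which are 16059 to 2344 bases long, so the rank of CIITA among the low members is not fixed.

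HLA-DRA encodes the alpha chain shared by all DR molecules and lies on the plus strand of chromosome 6 (32439842 to 32445046). It had the largest fall of the 10, 5.03-fold, with a log2 fold change of -2.33 (adjusted p = 4.65e-19, SE 0.26) and a mean count of 853, per the authors' deposited table. Of the 9743 genes whose mean count reached 100, 6 had a lower log2 fold change. HLA-DRB1, the main DR beta chain gene (minus strand, 32578769 to 32589848), fell 3.85-fold, with a log2 fold change of -1.95 (adjusted p = 2.11e-13, SE 0.26) and a mean count of 416, per the authors' deposited table. The log2 fold changes of these DR partners differed by 0.39 with a combined SE of 0.37, so no difference beyond their error was seen. HLA-DRB5, a second DR beta gene carried only on some haplotypes (minus strand, 32517343 to 32530287), fell 2.27-fold with a log2 fold change of -1.18 (adjusted p = 0.00262, SE 0.53) and a mean count of 93.8, per the authors' deposited table. Its call was lost when the DESeq2 change over its SE, from the authors' deposited table, was put to a Wald test (adjusted p = 0.265). DRB genes are nearly identical in places and the DRB genes present differ between haplotypes, so reads could be split between HLA-DRB1, HLA-DRB5 and other DRB loci, and their separate values are uncertain.

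The DP pair lies head to head on chromosome 6. HLA-DPA1 (minus strand, 33064569 to 33080775) fell 1.97-fold, with a log2 fold change of -0.98 (adjusted p = 3.06e-05, SE 0.24) at a mean of 298, and HLA-DPB1 (plus strand, 33075926 to 33087201) fell 2.81-fold, with -1.49 (adjusted p = 1.91e-05, SE 0.37) at a mean of 158, both in the authors' deposited table. The alpha chain minus the beta chain came to 0.51 on the log2 scale with a combined SE of 0.44. In the annotation the 2 genes share 4850 bases on opposite strands, and whether reads were counted by strand is not stated in the sources used here, so a part of each gene's reads may belong to the other. For DQ, the beta chain gene HLA-DQB1 (minus strand, 32659467 to 32668383) fell 3.60-fold, with a log2 fold change of -1.85 (adjusted p = 1.44e-05, SE 0.46) at a mean of only 41.3 in the authors' deposited table. Its partner HLA-DQA1 had a mean count of 11.8, close to the lowest of the table, and a log2 fold change of -0.59 (adjusted p = 0.039, SE 0.74) in the authors' deposited table, smaller than its SE and not called by the Wald test.

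CD74, on the minus strand of chromosome 5 (150401637 to 150412929), fell least among the 8. Its log2 fold change was -0.72 (adjusted p = 3.46e-07, SE 0.14), a 1.65-fold fall, with a mean count of 985, per the authors' deposited table. Between HLA-DRA and CD74 the log2 fold changes differed by 1.61 with a combined SE of 0.30. Per kilobase of transcript, in the mean over all libraries, CD74 was also the most abundant of the 10, at 930 normalized counts. HLA-DRA stood at 697, HLA-DRB1 at 338 and HLA-DPA1 at 175, all computed from the authors' deposited means. These means pool knockdown and control, and HLA-DRA fell 5.03-fold, so the order of HLA-DRA and CD74 in the controls alone is not known.

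HLA-DMA (minus strand of chromosome 6, 32948613 to 32969094) and HLA-DMB (minus strand, 32934629 to 32941070) encode the chains of HLA-DM. HLA-DMA had a log2 fold change of 0.04 (adjusted p = 0.866, SE 0.14) at a mean of 151, and HLA-DMB one of -0.07 (adjusted p = 0.763, SE 0.20) and a mean count of 101, per the authors' deposited table. HLA-DMA has about the mean count of HLA-DPB1 and CIITA, which fell. From the lowest change upward, the order was HLA-DRA, HLA-DRB1, HLA-DQB1, HLA-DPB1, CIITA, HLA-DRB5, HLA-DPA1, CD74, HLA-DMB and HLA-DMA. Neighbours in this order lay within 1.04 combined SE of each other, except CD74 and HLA-DMB, which lay 2.74 combined SE apart (0.66 on the log2 scale, combined SE 0.24). These distances describe genes chosen with their values known and are not tests.

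**Figure D2:**
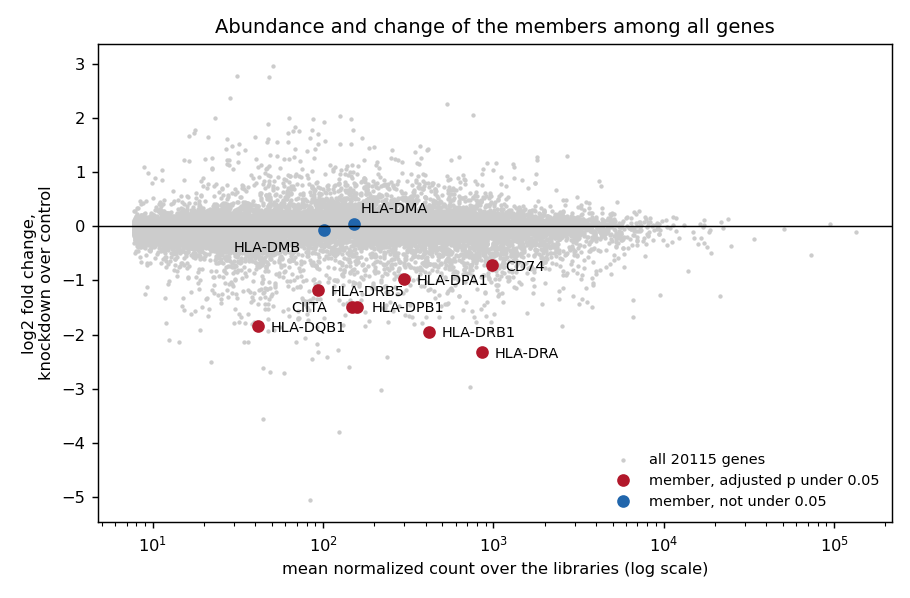
Mean normalized count over the libraries (x axis, log scale) against log2 fold change, UBE3D knockdown over control, with 1 grey point per gene for all 20115 genes and the 10 members in colour. HLA-DRA and HLA-DRB1 lie at the lower edge of the cloud at means of 853 and 416, HLA-DQB1 at its lower edge at 41.3, and HLA-DMA and HLA-DMB within it near 0.

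The promoters of several members share a short arrangement that RFX and NF-Y are known to bind. RefSeq promoters on GRCh38.p14, each 250 bases before to 50 bases after an annotated start, were at hand for 8 of the 10 genes; HLA-DRA and CIITA had none. They were searched on both strands for the X box, spelled as AG, any 2 bases, AC, any base and GATG, and for the core of the Y box, ATTGG. These letters were set after the members' promoters had been read, and neither motif can overlap the other in the arrangement counted. The X box was found in 5 members (HLA-DRB1, HLA-DRB5, HLA-DQB1, HLA-DMA and HLA-DMB) and in 0.817% of all 35116 promoters, the Y core in 7 members and in 34.6% of all. An X box followed on the same strand by a Y core 5 to 40 bases later was found in 11 of the 35116 promoters (0.0313%), and 4 of the 11 belonged to members: HLA-DRB1, HLA-DRB5, HLA-DQB1 and HLA-DMA. The stretches below are shown because 3 of these 4 genes fell and 1 did not; each runs 5′ to 3′ along its gene, with the X box and the Y core in capitals.

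HLA-DRB1 (chr6:32589875-32589942, minus strand): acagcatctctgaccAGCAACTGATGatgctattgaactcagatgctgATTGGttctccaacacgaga
HLA-DRB5 (chr6:32530358-32530425, minus strand): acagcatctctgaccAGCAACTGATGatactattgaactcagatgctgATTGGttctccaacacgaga
HLA-DQB1 (chr6:32666726-32666793, minus strand): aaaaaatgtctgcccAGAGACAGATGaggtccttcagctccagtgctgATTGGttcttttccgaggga
HLA-DMA (chr6:32953157-32953225, minus strand): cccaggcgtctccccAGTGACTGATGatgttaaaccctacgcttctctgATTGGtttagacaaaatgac

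The gap between the motifs was 22 bases in HLA-DRB1, HLA-DRB5 and HLA-DQB1 and 23 in HLA-DMA. The stretches of HLA-DRB1 and HLA-DRB5 differ at 1 of 68 bases. HLA-DMA, whose log2 fold change was 0.04 in the authors' deposited table, thus holds the same arrangement as HLA-DRB1 at -1.95. Of the other 7 promoters with it, 3 belong to genes in the authors' deposited table, and none of these passed the threshold. They were MR1, an MHC class I-like gene, at 0.06, HIF1A at -0.25 and FGD5-AS1 at -0.05. In MR1 the arrangement reads along the gene, as in the members, with a gap of 25 bases. In HIF1A and FGD5-AS1 it reads on the strand opposite to the gene, with gaps of 30 and 9 bases, and so is less like that of the members.

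The next 3 members are shown because they hold motif letters but lack that arrangement. HLA-DMB has the X box, and its Y core lies 55 bases on and on the other strand, where it reads CCAAT as printed. HLA-DPB1 and CD74 have the Y core, in CD74 as CCAAT, without the X box. Neither RefSeq promoter of HLA-DPA1 holds either motif in these letters.

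HLA-DMB (chr6:32941046-32941131, minus strand): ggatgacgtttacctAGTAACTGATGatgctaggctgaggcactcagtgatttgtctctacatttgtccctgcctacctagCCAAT
HLA-DPB1 (chr6:33075831-33075910, plus strand): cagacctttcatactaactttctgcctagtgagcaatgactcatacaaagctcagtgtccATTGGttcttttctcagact
CD74 (chr5:150412944-150413023, minus strand): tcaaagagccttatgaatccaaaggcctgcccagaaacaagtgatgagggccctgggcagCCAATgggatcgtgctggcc

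HLA-DPB1 at -1.49 and CD74 at -0.72 therefore fell without an exact match to the X box letters, and HLA-DMB at -0.07 did not change detectably with one, per the authors' deposited table. The exact letters did not divide the members that fell from those that did not. A match is a description of the letters, and a missing match says nothing of whether a factor binds.

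Along chromosome 6 the members that fell stood at both ends of the class II region and HLA-DM stood in its middle. From HLA-DRA to HLA-DPB1 the region spans 647360 bases (32439842 to 33087201), and 20 of its genes were measured, namely the 8 HLA members, 6 other class II loci and 6 genes of other kinds. These last 6 are TAP1 and TAP2, which encode the peptide transporter of class I presentation, the immunoproteasome genes PSMB8 and PSMB9, PSMB8-AS1 and the chromatin reader gene BRD2. By DESeq2 none of the 6 passed the threshold in the authors' deposited table, with log2 fold changes from -0.07 to 0.28 and a lowest adjusted p of 0.098, though 3 had an unadjusted p under 0.05 and lay above 0. All 6 lie between the DR and DQ genes on one side and the DP genes on the other, as do HLA-DMB and HLA-DMA. The region thus did not fall as a block.

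**Figure D3:**
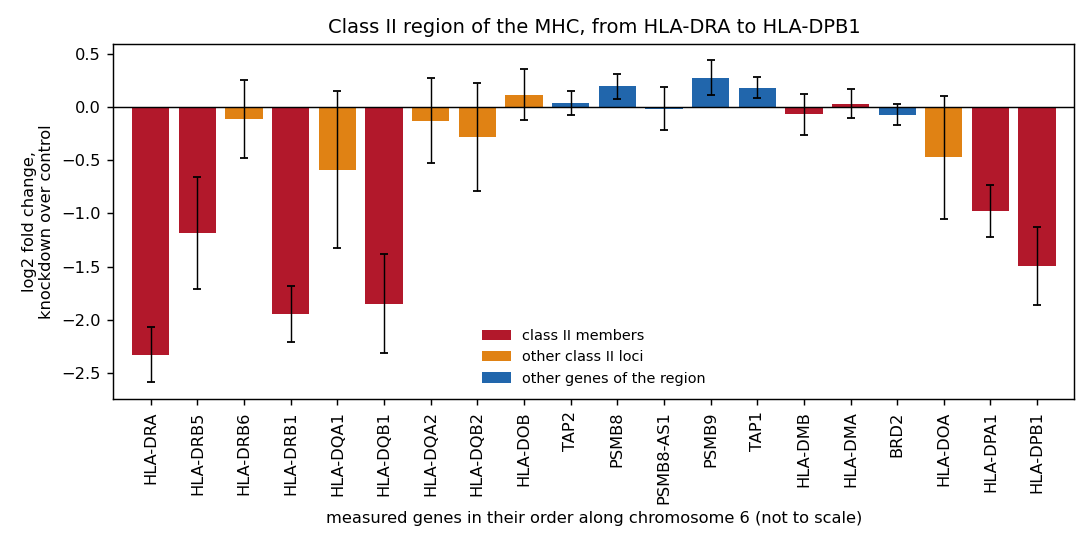
Log2 fold change, UBE3D knockdown over control, with bars of 1 SE on each column, for the 20 measured genes from HLA-DRA to HLA-DPB1 in their order along chromosome 6 (not to scale). HLA-DRA, HLA-DRB1, HLA-DRB5 and HLA-DQB1 at the left and the DP pair at the right lie at or below -0.98, while TAP2 to BRD2 in the middle lie between -0.07 and 0.28.

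The other class II loci were near the floor of detection. Of 12 listed, 7 were measured, with means from 11.8 to 44.6 normalized counts, and 1, HLA-DQA1, was lower in the authors' deposited table, 14.3% against 7.93% of all genes. At an unadjusted p under 0.05, 4 of the 7 lay below 0, namely HLA-DQA1, HLA-DOA, HLA-DQB2 (-0.28) and HLA-DPB2 (-0.26). Each of these 4 changes was smaller than its SE. Over all genes, in both directions, an unadjusted DESeq2 p of 0.0548 ranked 5062 from the lowest. At an adjusted p under 0.1, 2 of the 7 were lower, against 2103 of all 20115 genes. HLA-DOA, which encodes a chain of HLA-DO, the modulator of HLA-DM, stood at -0.47 (adjusted p = 0.0887, SE 0.58) and HLA-DOB, its partner, at 0.12 (adjusted p = 0.583, SE 0.24) in the authors' deposited table. The SEs of the 7 loci ran from 0.24 to 0.74.

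None of the factors that recruit CIITA to class II promoters was called. By DESeq2, 0 of the 9 genes of the promoter complex passed the threshold in the authors' deposited table, and 1, NFYB, had an unadjusted p under 0.05. Since 7.93% of all genes were lower and 4.62% higher, 0 of 9 is near the background. Their median log2 fold change was 0.01, against -0.03 over all genes. NFYB, an NF-Y subunit, had a log2 fold change of 0.22 (adjusted p = 0.157, SE 0.13) and RFXAP, an RFX subunit, 0.25 (adjusted p = 0.231, SE 0.22) in the authors' deposited table. RFX5, the large RFX subunit, stood at -0.05 with an SE of 0.10 in the authors' deposited table, against -1.48 for CIITA.

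Of the pathway from interferon gamma to CIITA, 12 of 13 genes were measured and 2 were lower, 16.7% against 7.93% of all genes. These were IFNGR2, which encodes a chain of the interferon gamma receptor (-0.47, SE 0.18, adjusted p = 0.0067), and SOCS1, a feedback inhibitor of JAK signalling (-1.22, SE 0.66, adjusted p = 0.00428) at a mean of 16.7, in the authors' deposited table. Neither gene was called by the Wald test. JAK1 (0.01), JAK2 (-0.02) and IRF1 (-0.15), which carry the signal to the CIITA promoter, did not pass in the authors' deposited table, with SEs of 0.11 to 0.14. The gene of interferon gamma itself had no row.

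Among 17 chromatin regulators that act on CIITA or on class II promoters, 2 were lower and 0 higher, also at an unadjusted p under 0.05, 11.8% against 7.93% of all genes. KAT2B, which encodes the acetyltransferase PCAF, had a log2 fold change of -0.80 (adjusted p = 3.67e-08, SE 0.14), and the histone deacetylase gene HDAC1 one of -0.37 (adjusted p = 0.00841, SE 0.14) in the authors' deposited table. EZH2 and the DNA methyltransferase gene DNMT1, both at 0.12 with an SE of 0.14, did not pass in the authors' deposited table. KAT2B alone was also called by the Wald test.

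Listed genes of the endosomal steps of class II presentation were lower in a larger share. The list was chosen with earlier results of these data known, so the share is a description and not a test. Of 19 measured genes for peptide loading and turnover, 10 were lower and none was higher in the authors' deposited table, 52.6% against 7.93% of all genes, and their median log2 fold change was -0.29. CD82, a tetraspanin of class II compartments, fell by 1.67 on the log2 scale (adjusted p = 2.55e-24, SE 0.16), and the protease gene CTSD by 0.88 (adjusted p = 7.99e-13, SE 0.12) in the authors' deposited table. LGMN, an asparagine endopeptidase that cuts antigens and CD74, fell by 0.90 (adjusted p = 2.73e-10, SE 0.14), and SPPL2A, which removes the membrane stub of CD74, by 0.62 (adjusted p = 7.44e-05, SE 0.16), per the authors' deposited table. CTSS, which trims CD74 in antigen-presenting cells, was lower by less (-0.29, SE 0.14, adjusted p = 0.0462), and IFI30, an interferon-induced thiol reductase, stood at 0.31 (adjusted p = 0.0526, SE 0.16) in the authors' deposited table. IFI30 was the 1 gene above 0 with an unadjusted p under 0.05. Most of these genes act in lysosomes of all cells. The Wald test called 7 of the 19, or 5 after the changes were shifted to a median of 0, CD82, CTSD, LGMN, SPPL2A and CTSZ.

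Few genes of class I presentation were called. Of 18 genes of class I presentation, 2 were lower and none was higher in the authors' deposited table, 11.1% against 7.93% of all genes, while 3 genes above 0 had an unadjusted p under 0.05. HLA-B (0.16, SE 0.12), a class I heavy chain gene, and B2M (-0.05, SE 0.12), the gene of the light chain, did not pass in the authors' deposited table. NLRC5, the relative of CIITA that drives class I genes, was lower (-0.77, SE 0.16, adjusted p = 2.48e-06), as was the peptide-trimming gene ERAP2 (-0.66, SE 0.16, adjusted p = 2.51e-05), in the authors' deposited table. Of 5 measured partners of CD74 as a receptor for the cytokine MIF, 1 was lower, 20% against 7.93% of all genes. This was CD44 (-0.26, SE 0.12, adjusted p = 0.0427) in the authors' deposited table, and it was not called by the Wald test.

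**Figure D4:**
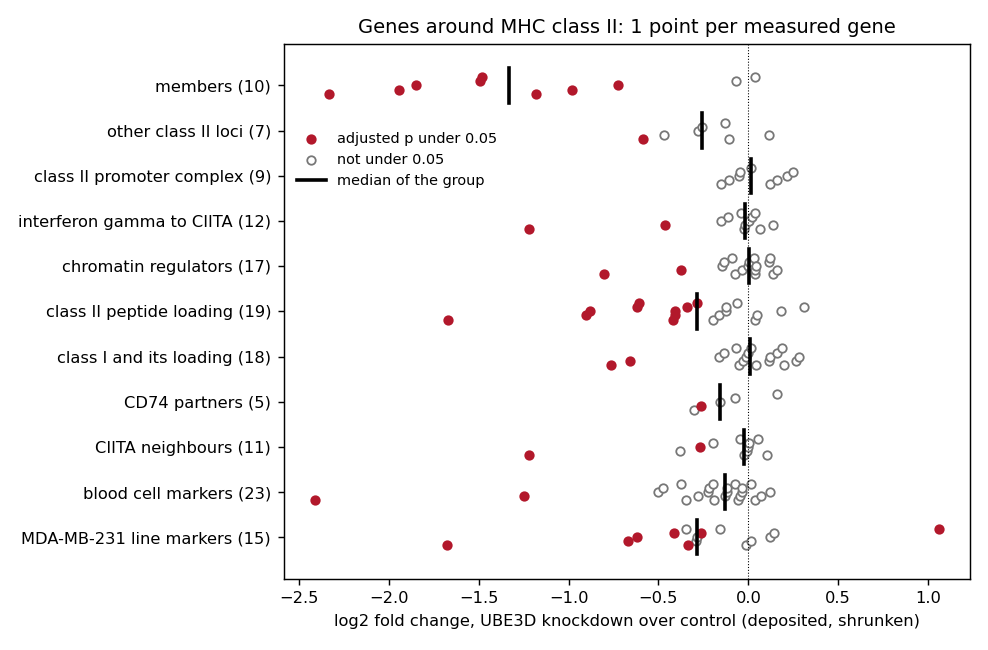
Log2 fold change, UBE3D knockdown over control, with 1 point per measured gene for the 10 members and for 10 groups of genes (number measured in brackets); filled points have an adjusted p under 0.05 and the vertical bars are medians. The members' median lies at -1.33, peptide loading genes at -0.29 with 10 of 19 filled, and the promoter complex at 0.01 with none filled.

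Markers of blood cells, the main makers of class II, were low in these libraries. Of 25 listed, 23 were measured and 2 were lower, 8.70% against 7.93% of all genes. LAPTM5, a lysosomal membrane protein gene of blood cells (-2.41, SE 0.15, adjusted p = 1.51e-58), and CD68, a lysosomal glycoprotein gene (-1.25, SE 0.15, adjusted p = 1.35e-15), were the 2 in the authors' deposited table, at means of 237 and 271. The other 21 had means from 9.18 to 192 normalized counts with a median of 18.2, and 19 of them lay under 50. By DESeq2 0 of the 21 were called in the authors' deposited table, and 5 had an unadjusted p under 0.05, all 5 below 0. These were the myeloid and dendritic cell genes ITGAX (-0.50, SE 0.68), CD163 (-0.47, SE 0.70), CD1C (-0.37, SE 0.65) and CD83 (-0.28, SE 0.15) and the B cell gene MS4A1 (-0.34, SE 0.65), with adjusted p-values from 0.0517 to 0.0708 by DESeq2 in the authors' deposited table. Over all 20115 genes an unadjusted DESeq2 p of 0.0419 ranked 4551 from the lowest and one of 0.0548 ranked 5062. Those ranks count changes in both directions, while all 5 markers lay below 0. They give no like share to set beside 5 of 21, and the 5 are given as a description. At an adjusted p under 0.1, 7 of the 23 markers were lower in place of 2. Over all 20115 genes 2103 were lower in place of 1595, a smaller share than among the markers. Of the 21, 17 lay below 0, within a range of -0.50 to 0.12. Over all 20115 genes, between 11368 and 11495 lay below 0, which is a smaller share. The pan-leukocyte gene PTPRC stood at a mean of 43.7 and a log2 fold change of -0.04 (SE 0.26) in the authors' deposited table. The part of blood cell RNA in the fall of class II was not tested. Among 15 markers of the line 6 were lower, 40% against 7.93% of all genes, and 1 was higher. The list mixes genes expected to be present with genes expected to be low or absent. Of those listed as present, CAV1 (-1.68), MSN (-0.62), FOSL1 (-0.41), VIM (-0.34) and CD44 were lower, and AXL (0.01) did not pass. Of those listed as low or absent, EPCAM (-0.67) was lower and CDH1 (1.06) higher, all in the authors' deposited table. The Wald test called CAV1, MSN and EPCAM and not CDH1.

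The genes most like HLA-DRA were taken as those with the nearest log2 fold changes to its -2.33 where the mean count reached 100, which is likeness over 1 comparison of 3 and 3 libraries. CD109 (-2.60), LAPTM5 (-2.41) and the carbonic anhydrase gene CA12 (-2.41) stood just below it, and the actin-capping gene CAPZA2 (-2.29), the protease inhibitor gene SERPINE2 (-2.28) and HLA-DRB1 (-1.95) just above it, in the authors' deposited table.

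The readthrough region of CIITA did not change detectably while its gene fell. The DoG region named CIITA had a log2 fold change of -0.02 (adjusted p = 0.901, SE 0.09) and a mean count of 420, per the authors' deposited table, and the gene stood at -1.48. Region minus gene came to 1.46 on the log2 scale with a combined SE of 0.31. Over all DoG regions 16.1% were lower. Where the host gene was itself lower, 58 of 146 regions were lower, 5 were higher and 83 were not called. Where the host fell by at least 1 on the log2 scale, as CIITA did, 11 of 19 regions were lower, and that of CIITA was not. The files give no coordinates of the region. In GENCODE 29 the coding transcripts of CIITA end at 10924437, 10924983 or 10936388. DEXI, on the opposite strand, spans 10928891 to 10942460 and runs toward CIITA. Its 3′ end, at 10928891, lies 3908 bases past the second of these CIITA ends. CLEC16A, on the strand of CIITA, starts at 10944488, 1467 bases past the last annotated end of CIITA. DEXI (log2 fold change -0.05, SE 0.14) and CLEC16A (0.11, SE 0.11) did not pass in the authors' deposited table. Readthrough of CIITA and transcription of these neighbours cannot be told apart in this region's value.

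CD74 had no DoG region, but 1 region runs toward it. TCOF1, on the plus strand of chromosome 5, ends 1329 bases before the 3′ end of CD74, which is on the minus strand. The gene TCOF1 had a log2 fold change of 0.06 (adjusted p = 0.772, SE 0.14), while the DoG region named for it had -0.70 (adjusted p = 7.98e-06, SE 0.16) at a mean of 826, in the authors' deposited table. That value is within its error of the -0.72 of CD74. Whether the region holds reads of CD74 from the other strand was not tested, since neither its coordinates nor the strand setting of the count is known here. Of the DoG hosts placed by symbol in GENCODE 29, no other ended within 20 kb of a member and toward it.

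**Figure D5:**
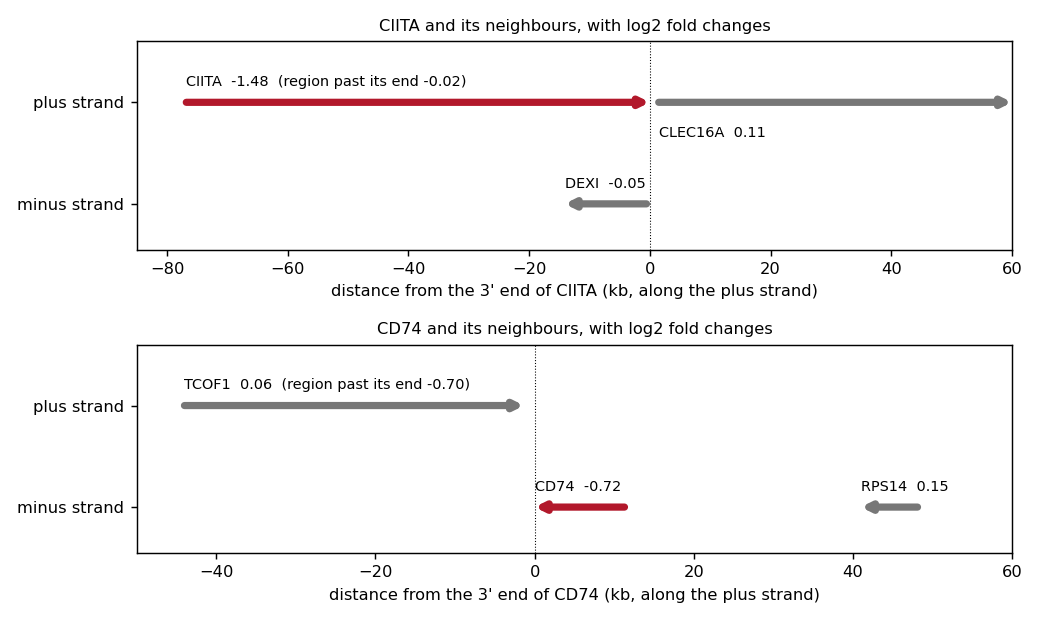
Genes around CIITA (top) and CD74 (bottom), drawn to scale against the distance in kb from the 3′ end of CIITA or CD74 and cut off at the frame, with arrows in the direction of transcription, red for an adjusted p under 0.05, and log2 fold changes (knockdown over control) beside the names. CIITA at -1.48 is followed within 2 kb by CLEC16A at 0.11, and TCOF1 at 0.06 points toward CD74 at -0.72, with -0.70 in the region past its end.

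The 7-base word GATTGAA was looked for in the members because earlier results of these data had drawn attention to it in 3′ untranslated regions. It was found in the longest annotated 3′ untranslated region of 9.50% of 16170 measured genes. Of the 10 members 1 held it, CIITA, whose longest such region has 12533 bases. It was in none of the 7 other lowered members, whose regions have 322 to 791 bases.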

How the data were processed

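The measurements are RNA-seq of 3 UBE3D knockdown and 3 control libraries of MDA-MB-231, made from rRNA-depleted total RNA as stranded read pairs, per the labels. Reads were handled with cutadapt 1.8.1, STAR 2.5.2b and DESeq2 on hg38, per the submitters' processing notes. How DoG regions were called, and with which annotation, tool and strand setting reads were counted, are not stated in the sources used here. The deposited signal per gene or region is the mean of normalized counts over the libraries, per the file headers. Each deposited log2 fold change, knockdown over control, is smaller relative to its SE than the p-value implies, so it was taken as shrunken toward 0. The deposited p-values and adjusted p-values come from DESeq2, per the file headers and the submitters' processing notes, and recomputing the Benjamini-Hochberg adjustment over all rows gave the deposited values. No value per library was given, so depth is unknown, replicates could not be compared, and precision is known from the SE alone.

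From these, members were matched by symbol, counts of calls were taken at an adjusted p under 0.05, and combined SEs are the root of the summed squared SEs. A Wald test of the deposited change over its SE, with Benjamini-Hochberg adjustment over all genes, was the alternative test and was checked on simulated data; because of the shrinkage it gives larger p-values. Levels were divided by the median length of a gene's coding transcripts in GENCODE 29, to which 18408 of 20115 genes matched by symbol, and promoters are from RefSeq. The tools were scipy 1.17.1, pandas 2.3.3 and numpy 2.4.6 under Python 3.11.15. The members, gene lists and tests were chosen with earlier results of these data known. Genes were named as members, as UBE3D and CPSF3, as up to 4 of lowest p among those past the threshold of each list (or 2 where none passed), and as the nearest 3 on each side of HLA-DRA. Other genes, such as RFX5, JAK1, JAK2, IRF1, EZH2, DNMT1, CTSS, IFI30, HLA-B, B2M, PTPRC, MS4A1, ITGAX, CD163, CD1C, CD83, HLA-DOA, HLA-DOB, HLA-DQB2, HLA-DPB2, VIM, AXL, FOSL1, ESR1, PGR, DEXI, CLEC16A, TCOF1, the named genes of the class II region, CTSZ and the non-members with promoter matches, were named after their values were seen.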

Additional observations from a re-analysis of the deposited data

How the results depend on the processing

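Lowered members numbered 8 at adjusted p thresholds of 0.05, 0.01 and 0.1. They numbered 7 under the Wald test, with and without the shift to a median of 0, which lost HLA-DRB5 (adjusted p = 0.265, and 0.290 with the shift; DESeq2 changes). They numbered 7 with means of at least 50, which leaves HLA-DQB1 untested, and 6 with changes of at least 1 on the log2 scale. Raised members numbered 0 under each of these. Over all genes, 1595 were lower and 929 higher. The Wald test gave 826 lower and 390 higher, the shifted Wald test 736 and 440, and changes of at least 1 gave 280 and 113. A threshold of 0.01 gave 579 higher genes. Lists of low or slightly changed genes lost most: under the shifted Wald test peptide loading genes gave 5 lower, against 10, and the interferon gamma pathway 0, against 2. A threshold of 0.1 gave 7 lower blood cell markers of 23, against 2, and 2103 lower genes of 20115, against 1595. The cause was not tested, beyond the larger p-values that the Wald test gives on changes taken as shrunken. No paired analysis was possible because the deposited tables hold no value per library. Leaving out each replicate could not be run for the same reason. Genes with means near the lowest of the table, such as HLA-DQA1, have SEs as large as their changes.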

Other observations

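Around CIITA on chromosome 16, 11 of 13 listed neighbours were measured, and the authors' deposited table has 2 of them lower in the knockdown, 18.2% against 7.93% of all genes. They were SOCS1, already described, and LITAF, a gene of an endosomal membrane protein, at -0.27 (adjusted p = 0.0491, SE 0.13). The Wald test called neither. The median log2 fold change of the 11 genes was -0.02.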
